A study of Mus musculus with 4 samples.

Results

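Regions of the mouse genome where BAP1 and HCF1 were both called, and OGT was not, were described here in bone marrow derived macrophages. Members were chosen by the deposited peak lists themselves: the 3 lists were merged, touching intervals were joined, and a region on chromosomes 1 to 19 was kept when it held at least 1 BAP1 peak, at least 1 HCF1 peak and no OGT peak. Of the 34244 merged autosomal regions, 6899 met this rule, which is 20.1%. On all chromosomes there were 34834 merged regions. The presence and absence of peaks thus defined the regions and is not a finding, and no test was made on it.

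The series is a chromatin immunoprecipitation sequencing (ChIP-seq) study of 4 libraries from C57BL/6 mice, 1 for each of BAP1, HCF1, OGT and an input. Marrow cells were grown into macrophages in L929 conditioned medium and had no further treatment. BAP1 was precipitated with anti-FLAG from knock-in animals labelled BAP1-3X Flag Tagged KI, whose own BAP1 carries a FLAG tag. The name of the deposited BAP1 list reads wild type instead. The labels were followed, the list cannot settle this, and anti-FLAG peaks from untagged cells would not mark BAP1. HCF1 and OGT were precipitated with antibodies to the proteins, and these libraries and the input came from BAP1 WT mice. The 2 proteins that define a member were therefore mapped in cells of different genotype, and a genotype difference cannot be told apart from a difference between targets. Neither the number of mice behind a library nor their age is given in the labels. No anti-FLAG library of untagged cells was analysed here. With 1 library per target no value has a replicate error, and the 95% intervals below are exact binomial (Clopper-Pearson) intervals that cover counting error only. Neighbouring regions are not independent, so these intervals are too narrow.

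BAP1 is a nuclear deubiquitinase that removes ubiquitin from histones and is lost in several tumours. HCF1 does not bind DNA by itself. It is brought to promoters by transcription factors and links them to enzymes that modify chromatin, and BAP1 binds it directly. OGT adds O-GlcNAc to nuclear proteins, and HCF1 is both modified and cleaved by it. OGT and HCF1 are components of BAP1 complexes, so a region with BAP1 and HCF1 but no called OGT peak is a partial set of these partners. An OGT peak below the limit of its list would not be seen. The lists are on build mm9. No genes were assigned to regions and no sequence was read, because the gene and promoter tables used here are for another build. Macrophage identity was likewise not checked, since that needs genes.

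In the full lists, regions without OGT were the larger part of all regions shared by BAP1 and HCF1. Of 12590 autosomal regions with both proteins, 6899 lacked an OGT peak, 54.8% (53.9 to 55.7%), and 5691 held all 3 proteins. By contrast, BAP1 was missing from 1744 of the 7435 regions with OGT and HCF1, 23.5% (22.5 to 24.4%). These shares depend on list length: the BAP1 list held 17662 peaks, the HCF1 list 31421 and the OGT list 10337. With every list reduced to the 10337 highest-scoring peaks, 39.5% of BAP1 and HCF1 regions lacked OGT, so they were then the smaller part. The share of OGT and HCF1 regions without BAP1 was not computed at that length. Members held 6960 of the 17389 autosomal BAP1 peaks, 40.0% (39.3 to 40.8%), and 7736 of the 30912 autosomal HCF1 peaks (24.5 to 25.5%).

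Most members were simple pairs. In 6078 members, 88.1% (87.3 to 88.9%), there was 1 BAP1 peak and 1 HCF1 peak. A further 723 had 1 BAP1 peak over 2 HCF1 peaks. Members with 2 or more BAP1 peaks numbered 60, or 0.870% (0.664 to 1.12%). Regions with all 3 proteins were less often such pairs, at 76.1% (74.9 to 77.2%), and more often held 2 or more HCF1 peaks, 21.3% against 11.4%. Members were also narrower, with a median width of 1409 bp (quartiles 1128 and 1828 bp) against 2097 bp (1562 and 2912 bp). An OGT peak can widen a merged region and join peaks, so part of this difference follows from the rule. The peaks themselves differed too: the median BAP1 peak was 1242 bp in members and 1648 bp in regions with all 3 proteins, and the median HCF1 peak 924 bp and 1528 bp. Only 21 members were wider than 5 kb, 0.304% (0.189 to 0.465%), compared with 354 of the regions with all 3 proteins, 6.22% (5.61 to 6.88%).

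The BAP1 peak enclosed the HCF1 peak in just over 50% of member pairs. Among the 6078 pairs, the HCF1 peak lay wholly inside the BAP1 peak in 3326, 54.7% (53.5 to 56.0%). The BAP1 peak lay inside the HCF1 peak in 444, 7.31% (6.66 to 7.99%), and in 2307, 38.0% (36.7 to 39.2%), each peak reached beyond the other on one side. In the remaining pair the peaks touched without sharing a base. The BAP1 peak was the wider of the pair in 77.4% (76.4 to 78.5%), with a median ratio of BAP1 to HCF1 width of 1.36. In pairs from regions with all 3 proteins this ratio was 1.10, the BAP1 peak was wider in 61.1% (59.6 to 62.5%), and the HCF1 peak lay inside it in 41.1% (39.6 to 42.6%). The HCF1 peak was thus small relative to the BAP1 peak more often where OGT was not called. Members also had lower HCF1 scores, with a median of 168 against 420 in regions with all 3 proteins. Relative width was not compared at equal score.

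Centres of the paired peaks lay close together. The median distance between BAP1 and HCF1 centres was 125 bp (quartiles 56 and 245 bp) in the 6078 pairs without OGT and 148 bp (62.5 and 295 bp) in the 4329 pairs with OGT. Centres were within 100 bp in 42.1% (40.8 to 43.3%) of the pairs without OGT and 37.4% (36.0 to 38.9%) of those with it. They were within 250 bp in 75.5% (74.4 to 76.5%) and 68.6% (67.2 to 70.0%). The HCF1 centre fell inside the BAP1 peak in 97.1% (96.7 to 97.5%) of the member pairs. Distance was greater at higher scores. Its median was 116.5 bp where the lower of the 2 score percentiles was at most 25 and 147.75 bp where it was above 75, a range wider than the difference between pairs without and with OGT. In the regions with all 3 proteins the same groups had medians of 132 and 173 bp. Wider peaks leave more room for centres to part, and distances were not compared at equal width.

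**Figure D1:**
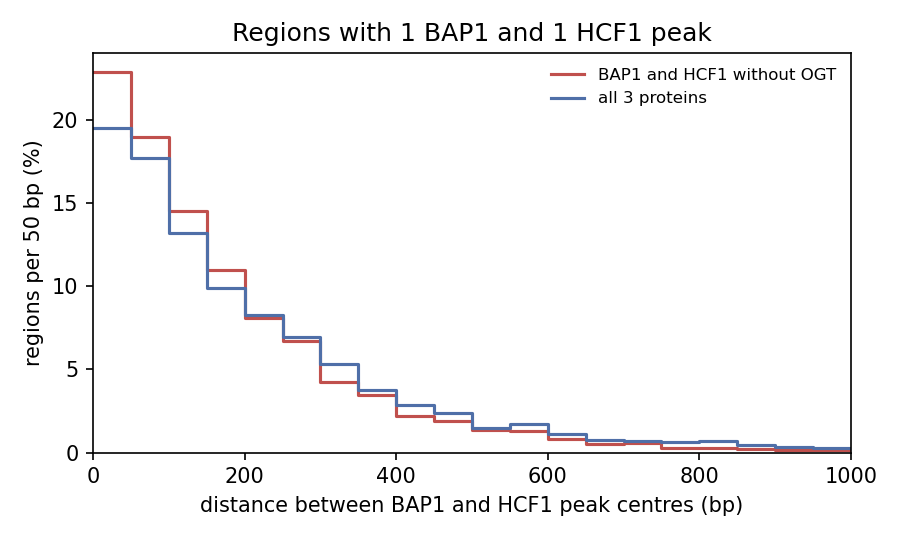
Distance between BAP1 and HCF1 peak centres (x axis, bp, up to 1000 bp) in regions with 1 peak of each, as the percentage of regions in each 50 bp step (y axis), for 6078 regions without OGT (red) and 4329 with all 3 proteins (blue). The first step holds 22.9% of the regions without OGT, and both curves fall steadily with distance.

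Where a member had 1 BAP1 and 2 HCF1 peaks, the BAP1 peak had to bridge the HCF1 peaks for the region to be joined, so a central BAP1 peak and a short gap follow largely from the rule. The BAP1 centre lay between the HCF1 centres in 602 of the 723 members of this kind, 83.3% (80.3 to 85.9%). The 2 HCF1 centres were a median of 892 bp apart (quartiles 710 and 1102 bp). The gap between the HCF1 peaks was short, with a median of 98 bp (37 and 209 bp). In the 874 regions of this kind with OGT, the BAP1 centre lay between the HCF1 centres in 79.1% (76.2 to 81.7%), and the intervals of the 2 shares overlap. The HCF1 centres there were farther apart, at a median of 1217 bp, with a median gap of 90.5 bp. In those regions an OGT peak can also bridge the HCF1 peaks, so the rule does not bind the 2 groups alike.

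Scores of members covered nearly the whole range of both lists. The score is the authors' value for each peak and has no stated definition, and no list held a score below 50. Levels were therefore read as percentiles within a list, and the highest-scoring peak of each list stood for a region. BAP1 peaks of members scored between 50.01 and 3126.88, with a median of 118 (quartiles 78.0 and 181), at a median percentile of 52.1. HCF1 peaks of members scored between 50.01 and 3100, with a median of 168 (94.4 and 313), at a median percentile of 66.0. Members thus sat near the middle of the BAP1 list and above the middle of the HCF1 list. In regions with all 3 proteins the median percentiles were 74.4 for BAP1 and 86.1 for HCF1.

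Low scores were frequent but did not make up the set. Both peaks scored under 100 in 1150 members, 16.7% (15.8 to 17.6%), against 231 regions, 4.06%, among those with all 3 proteins. BAP1 was in its highest decile in 323 members, 4.68% (4.20 to 5.21%), and HCF1 in its highest decile in 582, 8.44% (7.79 to 9.12%). Both were in their highest decile in 115 members, 1.67%. With all 3 proteins present these shares were 24.5%, 39.8% and 18.2%. Across the 6899 members the 2 scores had a Spearman rho of 0.43, and across the 5691 regions with all 3 proteins 0.57. These values describe regions from the same libraries, and higher-scoring peaks are also wider.

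**Figure D2:**
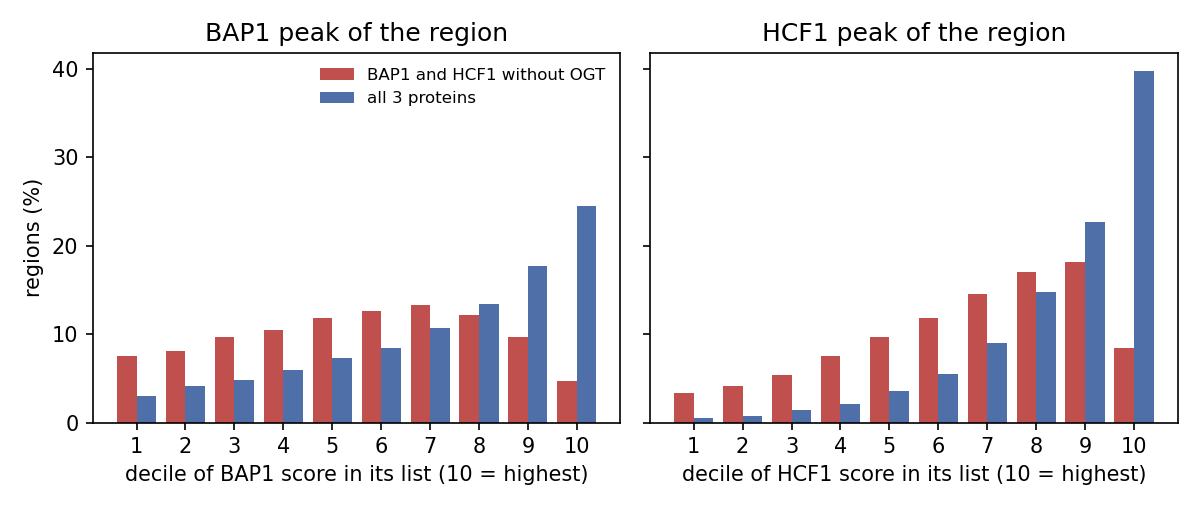
Percentage of regions (y axis) whose BAP1 peak (left) or HCF1 peak (right) falls in each decile of its own list (x axis, 10 highest), for 6899 regions without OGT (red) and 5691 with all 3 proteins (blue). Regions without OGT peak in BAP1 decile 7 and HCF1 decile 9 and drop in decile 10, where 4.68% and 8.44% of them lie.

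The share of BAP1 and HCF1 regions that lacked OGT fell with score in both lists. By decile of the HCF1 score, 230 of 257 regions lacked OGT in the lowest, 89.5% (85.1 to 93.0%), and 582 of 2846 in the highest, 20.4% (19.0 to 22.0%). The decline ran through every decile, passing 77.0% in the fifth and 49.3% in the ninth. By decile of the BAP1 score the lowest gave 74.9% (71.4 to 78.0%) and the highest 18.8% (17.0 to 20.7%). The BAP1 decline was shallow over most of the list, with 64.5% still without OGT in decile 6, and was steep in the last 3 deciles, at 52.5%, 40.0% and 18.8%. Regions of higher score are wider and so have more room for an OGT peak. Among regions of 1 to 2 kb, a limit chosen after the data were seen, the lowest and highest HCF1 deciles gave 87.6% and 34.5%, and the highest BAP1 decile 33.1%. Where OGT was present its own score moved with that of HCF1. OGT scored under 100 in 74.1% of the 27 regions with OGT in the lowest HCF1 decile, against 30.3% of 2264 in the highest, with median OGT scores of 77.5 and 142. Whether members hold OGT below the limit of its list was not tested, and the depth of the OGT library is unknown.

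At a given HCF1 score, the share without OGT changed little with the BAP1 score up to its top quintile, except among the highest HCF1 scores. Quintiles are numbered from 1, the lowest scores, to 5. In HCF1 quintile 4, BAP1 quintiles 1 to 4 gave 66.0%, 64.6%, 64.4% and 62.7% without OGT, and quintile 5 gave 48.1% (43.8 to 52.5%). In HCF1 quintile 5 the BAP1 quintiles gave, from 1 to 5, 50.2%, 47.2%, 48.7%, 42.7% and 22.3% (20.8 to 24.0%). The reverse comparison showed a decline at each step in all 5 BAP1 quintiles. In BAP1 quintile 3, HCF1 quintiles 1 to 5 gave 87.9%, 81.3%, 73.8%, 64.4% and 48.7%. Restricted to regions of 1 to 2 kb, that series was 89.8%, 82.8%, 74.7%, 67.0% and 61.3%. At that width the decline was broken in BAP1 quintile 1, with 66.6% and 67.5% in HCF1 quintiles 4 and 5, and in BAP1 quintile 4, with 81.0% and 81.1% in HCF1 quintiles 1 and 2. HCF1 quintile 4 was then flat over BAP1 quintiles 1 to 4, between 65.1% and 67.0%, and at 57.7% (51.7 to 63.6%) in quintile 5. In HCF1 quintile 5 of that width, however, the share declined over all BAP1 quintiles, at 67.5%, 62.9%, 61.3%, 54.2% and 37.3%. With each list divided at its median, regions with a low HCF1 score lacked OGT in 82.3% (80.4 to 84.1%) of cases with a low BAP1 score and 80.0% (77.1 to 82.7%) with a high BAP1 score. With a high HCF1 score these shares were 62.2% (60.5 to 63.9%) and 42.0% (40.8 to 43.1%).

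**Figure D3:**
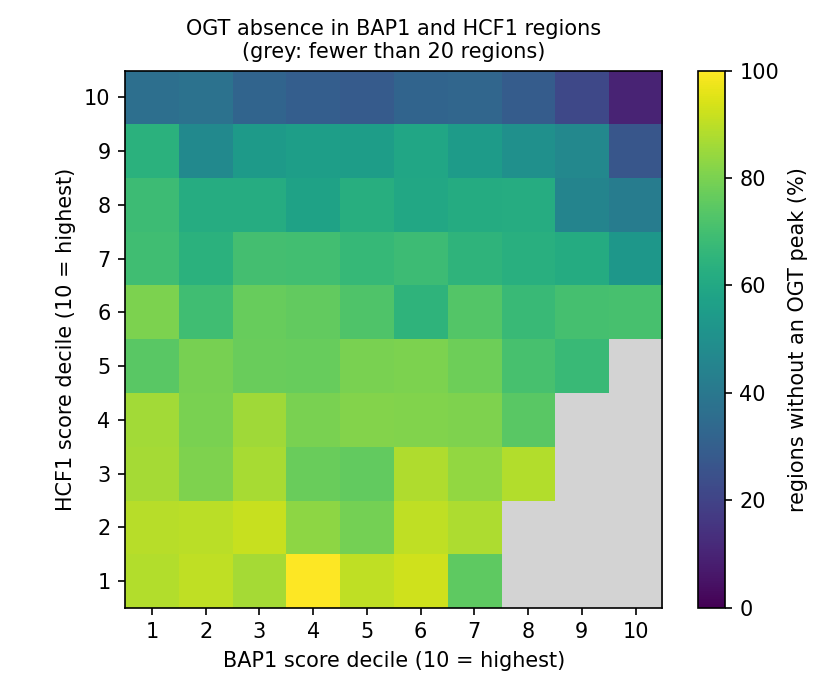
Percentage of BAP1 and HCF1 regions without an OGT peak (colour, from 0 to 100%) by decile of the BAP1 score (x axis) and of the HCF1 score (y axis), with cells of fewer than 20 regions in grey. Colour changes mainly from bottom to top, along HCF1, and the darkest corner is where both scores are in the highest decile.

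Members with strong peaks of both proteins were named by the lower of their 2 score percentiles. The first lay on chromosome 19 from 10055076 to 10063399, with a BAP1 score of 1732.44 and an HCF1 score of 2831.52. It was 8324 bp wide, its BAP1 and HCF1 peaks were 8198 and 8142 bp wide, and their centres were 154 bp apart. An OGT peak with a score of 382.67 lay 839 bp beyond its edge. This member therefore holds no OGT peak by a margin shorter than the region itself. The second, on chromosome 2 from 160188895 to 160194230, scored 984.12 for BAP1 and 2098.62 for HCF1, and also had an OGT peak nearby, 1216 bp away with a score of 71.47. The third, on chromosome 15 from 81639651 to 81642728, scored 1056.97 and 1324.49. Its nearest OGT peak was 33.1 kb away, well beyond its width of 3078 bp but near the median gap of all members, 32.3 kb.

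In the other members of this group of 10, the nearest OGT peaks lay between 14.0 kb and 189 kb away and scored between 61.78 and 149.95. Some of these gaps were below and some above the median of all members, 32.3 kb. The member on chromosome 7 from 118224871 to 118227726 had the longest gap, 189 kb, and scored 562.25 for BAP1 and 1321.7 for HCF1. Its peak centres were 69.5 bp apart. The member on chromosome 9 from 90007934 to 90010114 was the most compact at 2181 bp, with scores of 536.68 and 1865.63 and centres 95 bp apart. In 4 of the 10 the centres were over 800 bp apart. The largest such distance was 2103.5 bp, on chromosome 13 from 5859478 to 5868489, where a BAP1 peak of 4918 bp covered 1 side of an HCF1 peak of 8899 bp. Across the 10, the lower percentile ran from 96.1 to 99.8.

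**Figure D4:**
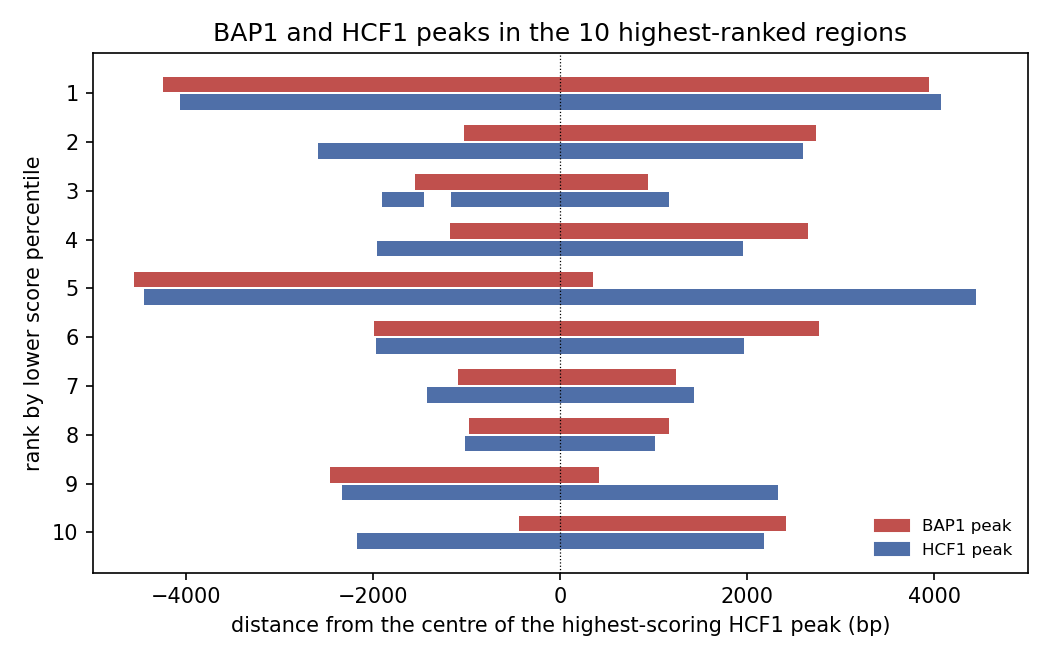
BAP1 peaks (red) and HCF1 peaks (blue) of the 10 members with the highest lower score percentile, ranked from top to bottom (y axis), against distance from the centre of the highest-scoring HCF1 peak (x axis, bp). The first has BAP1 and HCF1 peaks of nearly the same extent, while the fifth has its BAP1 peak on 1 side of a wider HCF1 peak.

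The members with the highest BAP1 scores mostly had moderate HCF1 peaks. On chromosome 19, from 4988579 to 4989771, a BAP1 peak with a score of 3126.88, the highest of the whole BAP1 list, lay over an HCF1 peak of 536 bp that scored 109.34, at percentile 51.7. The second, on chromosome 7 from 6362571 to 6363569, scored 3100 for BAP1 and 151.25 for HCF1, at percentile 62.9. The third, on chromosome 9 from 108728865 to 108730173, scored 2080.39 for BAP1 and 200.19 for HCF1, at percentile 70.7. These regions were 1193, 999 and 1309 bp wide, so a very high BAP1 score did not require a wide region. The fourth, on chromosome 1 from 130485514 to 130490639, had a BAP1 peak of 5126 bp scoring 2066.13 over 2 HCF1 peaks that scored 169.46 and 119.35. The fifth was the chromosome 19 member named first above. A score of exactly 3100 is also the highest in the OGT list and the highest HCF1 score of any member. Why this value recurs is not stated, so the order among the very highest scores may not rank strength. Over all 323 members in the top BAP1 decile the median HCF1 percentile was 85.3, against 95.2 in the 1395 such regions with OGT. HCF1 fell below its list median in 21 of the 323, 6.50% (4.07 to 9.77%), and in 10 of the 1395, 0.717% (0.344 to 1.31%). The BAP1 peak was a median of 2137 bp wide in the first group and 2556 bp in the second.

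In 3 of the 5 members with the highest HCF1 scores, a wide HCF1 peak had smaller BAP1 peaks inside it. On chromosome 11 from 120092132 to 120099594 an HCF1 peak of 7463 bp scored 3100 and held 3 BAP1 peaks, with scores of 137.63, 222.17 and 120.69. On chromosome 11 from 18917619 to 18921899 an HCF1 peak of 4281 bp scored 2581.03 and held 2 BAP1 peaks, with scores of 190.98 and 52.96. The nearest OGT peak to this member was 897 kb away. On chromosome 12 from 74150260 to 74155574 an HCF1 peak of 5315 bp scored 2197.35 over a BAP1 peak of 970 bp that scored 77.11. In these 3, 1 HCF1 peak covered the whole region and each BAP1 peak was a smaller part of it. The other members in this group of 5 were the chromosome 19 member named first above and one on chromosome 12 from 77469071 to 77473863, where BAP1 scored 521.83 and HCF1 2126.47. BAP1 was below its list median in 85 of the 582 members in the top HCF1 decile, 14.6% (11.8 to 17.7%), and in 186 of the 2264 such regions with OGT, 8.22% (7.12 to 9.42%).

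Imbalance between the 2 proteins ran mainly toward HCF1, in members and in regions with all 3 proteins. The HCF1 percentile exceeded the BAP1 percentile in 4587 members, 66.5% (65.4 to 67.6%), and the BAP1 percentile minus the HCF1 percentile had a median of -9.93 points over all members. In regions with all 3 proteins the share was 71.3% (70.1 to 72.4%) and the median -7.85 points, so the tilt is not particular to members. The percentiles come from lists of 17662 BAP1 and 31421 HCF1 peaks, so the 2 are not on the same scale. The HCF1 percentile was at least 50 points higher in 573 members, 8.31% (7.66 to 8.98%). BAP1 was at least 50 points higher in 113, 1.64% (1.35 to 1.97%). The latter kind made up 0.439% (0.284 to 0.648%) of regions with all 3 proteins, while the HCF1-heavy kind made up 8.07% (7.37 to 8.80%) there. The strongest imbalance toward BAP1 was on chromosome 14 from 73577695 to 73581043, where a BAP1 peak of 3349 bp scored 527.16 and an HCF1 peak of 481 bp scored 52.16. The strongest toward HCF1 was on chromosome 7 from 30879061 to 30880521, where an HCF1 peak of 1363 bp scored 865.58 and a BAP1 peak of 1240 bp scored 51.5. The second of each pair is only just above the limit of its list.

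The 3 widest members differed in make-up. The widest of all was 19881 bp, on chromosome 2 from 117935262 to 117955142, and consisted of a single BAP1 peak scoring 145.42. Its 2 HCF1 peaks were 383 and 283 bp wide, scored 62.63 and 53.12, and both lay in the first 3 kb of the region. The second was the chromosome 13 member described above, in which both peaks were broad. The third, on chromosome 7 from 20278633 to 20287088, had a BAP1 peak of 8456 bp scoring 1726.76 over 6 HCF1 peaks, the most HCF1 peaks in any member. Of those 6, the highest scored 382.01 and the other 5 scored between 62.67 and 86.69. Repeats and copy number were not examined, and their part in these wide regions was not tested.

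OGT peaks were less frequent around members than around regions with HCF1 alone. The median gap from a member to the nearest OGT peak was 32.3 kb (quartiles 9.80 and 105 kb). An OGT peak lay within 10 kb of 1754 members, 25.4% (24.4 to 26.5%), where the value for all autosomal regions without OGT was 32.7%. In regions with BAP1 alone the share was 24.1% (22.8 to 25.5%), an interval that overlaps that of the members. In regions with HCF1 alone it was 38.7% (37.9 to 39.5%). Within 1 kb the shares were 4.15% (3.69 to 4.64%) for members, 2.75% (2.27 to 3.30%) for BAP1 alone and 9.55% (9.07 to 10.1%) for HCF1 alone. Of the OGT peaks nearest to the 1754 members, 1170 belonged to a region with all 3 proteins, 66.7% (64.4 to 68.9%). Of all autosomal regions with OGT, each counted once, 62.1% were of this kind. The same OGT peak can be nearest to several members, so the 2 shares count different units. Those nearest peaks had a median score of 82.4. Members of higher score had OGT nearby less often. The share within 10 kb was 28.7% (26.6 to 30.8%) where the lower percentile was at most 25 and 21.4% (18.8 to 24.2%) where it was above 75. Shared regions of higher score more often held an OGT peak themselves and were then left out by the rule. How much of this contrast follows from that was not tested.

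**Figure D5:**
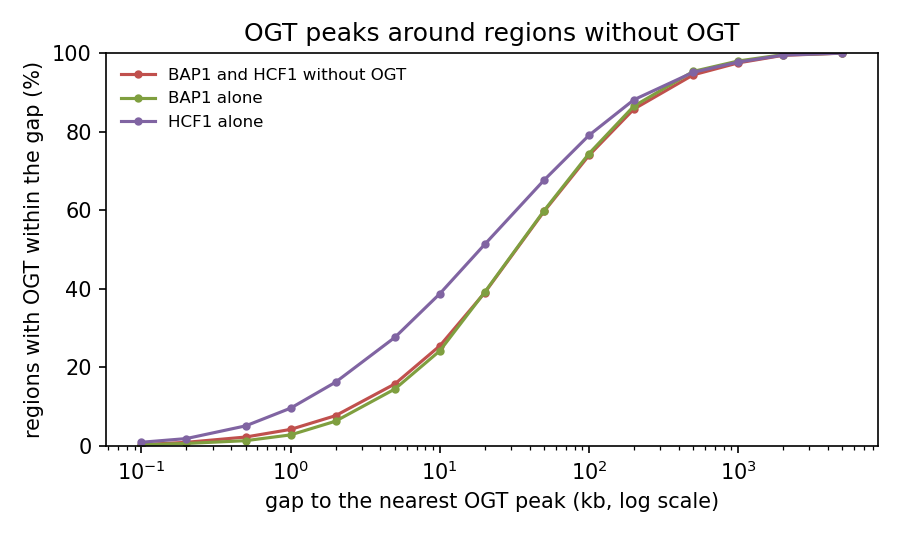
Percentage of regions (y axis) with an OGT peak within a given gap (x axis, kb, log scale), for regions with BAP1 and HCF1 but no OGT (red), BAP1 alone (green) and HCF1 alone (purple). The red and green curves nearly coincide, at 25.4% and 24.1% within 10 kb, and the purple curve is above them at 38.7%.

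At the edge of the rule, some members missed OGT by a few bases. The closest, on chromosome 1 from 34907940 to 34909245, was 4 bp from an OGT peak scoring 51.91, and the next 2 were 6 and 10 bp from OGT peaks scoring 52.28 and 51.7. There were 18 members within 100 bp of an OGT peak, 0.261%, and 286 within 1 kb, 4.15%. Within 100 bp the shares were 0.221% for BAP1 alone and 0.872% for HCF1 alone, so such closeness is not particular to members. Just outside the rule, the regions with all 3 proteins and the lowest OGT scores had 50.04, 50.05 and 50.11. The first of these, on chromosome 14 from 55481967 to 55483782, scored 496.61 for BAP1 and 348.41 for HCF1. OGT scored under 60 in 739 of the 5691 regions with all 3 proteins, 13.0% (12.1 to 13.9%), and under 100 in 2644, 46.5% (45.2 to 47.8%). The smallest overlap of an OGT peak with a BAP1 or HCF1 peak in such a region was 16 bp, and in 9 regions it was at most 100 bp. At the far end, the member most distant from OGT lay on chromosome 17 from 95148647 to 95149877, 6197 kb from the nearest OGT peak, with scores of 259.74 for BAP1 and 243.84 for HCF1.

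Members were found on all autosomes, and their nearest shared region lacked OGT somewhat more often than that of regions with all 3 proteins. The share of BAP1 and HCF1 regions without OGT ranged from 47.8% (43.9 to 51.7%) on chromosome 17 to 63.2% (57.6 to 68.4%) on chromosome 18. Chromosome 2 held the most members, 603, and chromosome 11 the next most, 587. These chromosomes also held the most merged regions of any kind, 2973 and 2902, so the ranking follows the number of regions. The nearest other BAP1 and HCF1 region lacked OGT for 3905 members, 56.6% (55.4 to 57.8%), and for 2807 regions with all 3 proteins, 49.3% (48.0 to 50.6%). Where that neighbour was within 10 kb the shares were 52.9% (50.9 to 54.9%) and 43.2% (41.3 to 45.2%). Of all autosomal BAP1 and HCF1 regions 54.8% lacked OGT, and within 10 kb both shares were below this value. A region can be the nearest neighbour of more than 1 other, so 54.8% is not the base for neighbours. How far each group departs from such a base was not computed. Members also had fewer close neighbours: 35.0% (33.9 to 36.2%) had another BAP1 and HCF1 region within 10 kb, against 46.4% (45.1 to 47.7%) of regions with all 3 proteins. Of 1682 windows of 1 Mb with any BAP1 and HCF1 region, 1565 held a member, with a median of 3 each. The richest window spanned 88000001 to 89000000 of chromosome 3 and held 21 members among 34 BAP1 and HCF1 regions. On chromosome 13 from 23000001 to 24000000 the window held 20 members and only 7 regions with all 3 proteins. That is the lowest number with OGT among the 10 windows richest in members.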

How the data were processed

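ChIP-seq of BAP1, HCF1 and OGT, 1 library each, was read from the peak lists the authors deposited. GSNAP and MACS 1.4 on build mm9 are named in the submitters' processing notes, without settings and without saying how the input was used. The only measurement deposited by the authors is a score per peak, of unstated definition. The lists give no read totals, so library depth is unknown.

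Starts were read as counted from 0 and are printed counted from 1. Intervals were merged in Python 3.11.15 with pandas 2.3.3, and the merge was checked against bedtools 2.31.1 and tested on simulated intervals. Score percentiles and deciles were taken over each whole list. Intervals came from SciPy 1.17.1. Named regions were the 10 with the highest lower percentile, the 5 highest for each score, the extremes of score imbalance, and the 3 widest, nearest to OGT and farthest from it. Of the imbalanced regions, the first of 5 in each direction is printed. The 3 regions of least OGT overlap were added after values were seen. The members and rules were chosen with earlier results of these data known. Gene positions and motifs were not analysed here, since no mm9 genome was used.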

Additional observations from a re-analysis of the deposited data

How the results depend on the processing

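The number of members stayed within 1.5 times of 6899 under 8 of 10 alternatives, from 5145 (no OGT peak within 10 kb) to 7027 (all chromosomes). It was 2594 with lists of equal length and 1799 when OGT was barred within 100 kb, the latter chosen after seeing the data. A similar number need not mean the same regions. Of the 6899 members, 2780 had a BAP1 score under 100 and 1896 an HCF1 score under 100, with 1150 counted in both. Yet 5204 regions met the rule with a score of at least 100, so some came from outside the main set. OGT scored under 100 in 2644 of the 5691 regions with BAP1, HCF1 and OGT. How many regions were members under both settings was not counted. The share of BAP1 and HCF1 regions without OGT was 67.7% with a score of at least 100, 71.2% with peaks trimmed to 200 bp and 39.5% with equal lengths. The median centre distance, 136.5 bp over all members, was 158 bp with the stricter score and 125 bp in pairs only. The median width was 1712 bp with the stricter score and 279 bp with trimmed peaks. With the mean of a region's peaks the median HCF1 percentile was 63.1. An OGT peak lay within 1 kb of 4.15% and within 100 kb of 73.9% of members. Other settings, chosen after seeing the data, kept the decline with score but changed its size. Counting OGT only with its centre within 250 bp of the HCF1 centre gave 94.2% and 66.7% in the lowest and highest HCF1 deciles and 82.4% and 64.0% in those of BAP1. Counting only OGT scores of at least 100 gave 97.3% and 44.6%, and 89.8% and 41.6%. In regions of 1 to 2 kb the highest deciles gave 34.5% for HCF1 and 33.1% for BAP1. The cause of these shifts was not tested. The planned start-site and motif alternatives were not run. No paired analysis was possible because every target was profiled in a single library. Depth is unknown, so OGT binding below the limit of its list would be missed.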

Other observations

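The rule left out 128 regions with BAP1 and HCF1 but no OGT on the X and Y chromosomes and on unplaced sequence. On X, 122 of 157 regions with BAP1 and HCF1 lacked OGT, 77.7% (70.4 to 84.0%), which is above the highest single autosome at 63.2% (57.6 to 68.4%). HCF1 scores on X were lower, with a median percentile of 63.1 in these regions against 75.8 on the autosomes. Autosomal regions weighted to the HCF1 deciles of the X regions gave 64.8%. The cause of the higher share on X was not tested. The labels do not state the sex of the mice, and this comparison was made with the low share of OGT on X already known.

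Some stretches of the genome held members and no region with all 3 proteins. The 1 Mb window on chromosome 7 from 140000001 to 141000000 held 10 members, and the window on chromosome 3 from 10000001 to 11000000 held 8, with no region of all 3 proteins in either. These windows were picked as extremes after the counts were seen.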
